A study of Mus musculus with 4 samples.

Results

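The cells described here are 119 of 2825 kept cells of the Tnfsf11 lineage, chosen by their measured levels of 19 rule genes, the last step being a gene score, among stromal cells that are neither rich in Cxcl12 nor rich in osteocalcin. They came from femurs and tibias of 2 pools of mice, 43 of 1426 kept cells in the control pool and 76 of 1399 in the immobilized pool. Their working name points to the Kcnk2, Ndnf and Angpt4 side of the osteo-primed stroma, the marrow stromal cells that carry bone-forming genes without being mature osteoblasts. The rule and the data bear that name out only in part, so the members are called low-score cells and the remaining gated cells high-score cells.

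Droplet single-cell RNA-seq counts unique molecular identifiers (UMIs) per gene and cell. Both pools had the genotype Tnfsf11tTA/+;LC1;R26-tdTomato on C57BL/6J, and all mice received doxycycline from E0 to birth. A tetracycline transactivator (tTA) at 1 Tnfsf11 allele drives Cre in this system, and doxycycline holds it off. By design tdTomato therefore marks present or past activity of the locus after birth and the descendants of such cells, not present RANKL. The control pool held 4 mice and the immobilized pool 6 mice whose hindlimbs were immobilized for 2 weeks from 8 weeks of age, and both were taken at 10 weeks. Live cells negative for CD45.2 and Ter119 and positive for tdTomato were sorted from bone and marrow of both limbs. Each pool is 1 sample, so no comparison below has a replicate, a test or a p-value, and every 95% interval covers counting error only.

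RANKL, the product of Tnfsf11, is the cytokine that drives osteoclast formation, and stromal cells of bone and marrow are among its sources. Cxcl12-abundant reticular (CAR) cells are the Lepr-positive stroma that feeds blood stem cells and can also turn towards fat or bone. Osteo-primed stroma is placed between CAR cells and osteoblasts by its joint use of stromal and bone genes. Kcnk2 encodes a potassium channel opened by membrane stretch, Ndnf and Angpt4 encode secreted factors with roles in vessels and nerves, and Hs3st5 and Nlgn1 encode a heparan sulfate sulfotransferase and a synaptic adhesion protein.

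Members were found in lane 1 of each pool among cells that passed 500 genes and stayed below 10% mitochondrial UMIs. A cell had to hold under 50 Cxcl12 and under 100 Bglap plus Bglap2 per 10000 UMIs, at least 10 of Wif1, Limch1, Tnc, Mmp13 and Kcnk2 together, and under 3 UMIs of Panx3, Adamts18, Fat3 and Lgr6 together. The score was the mean log1p level of Megf10, Postn, Spp1 and Mmp13 minus that of Hs3st5, Nlgn1, Angpt4, Ndnf and Kcnk2, and members lie at or below its median over both pools. The Wif1 group left 290 control and 564 immobilized cells, of which the 4-gene term set aside 201 and 416, and Fat3 alone reached 3 UMIs in 191 and 387 of these. The gate then held 89 and 148 cells, split into 43 and 76 low-score and 46 and 72 high-score cells. Low-score cells made up 3.02% of kept control cells (Clopper-Pearson interval 2.19 to 4.04) and 5.43% of kept immobilized cells (4.30 to 6.75).

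The cut lay at a score of 1.63, well above 0, so it separated cells mainly by how little of the bone-matrix genes they held. The highest low-score cell stood at 1.63 in control and 1.61 in immobilized cells, and the lowest high-score cell at 1.71 and 1.64. A score below 0, where the Kcnk2 genes outweigh the Megf10 genes, occurred in 5 of 43 control and 11 of 76 immobilized low-score cells. The median level of the 5 Kcnk2-side genes in low-score cells was 0.338 (mean log1p) in control and 0.327 in immobilized cells, against 0.452 and 0.313 in high-score cells. The median level of the 4 Megf10-side genes was 1.33 and 1.46 against 3.11 and 2.92. Within 0.25 of the cut lay 2 low-score and 6 high-score cells of the control pool and 15 and 13 of the immobilized pool.

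**Figure D1:**
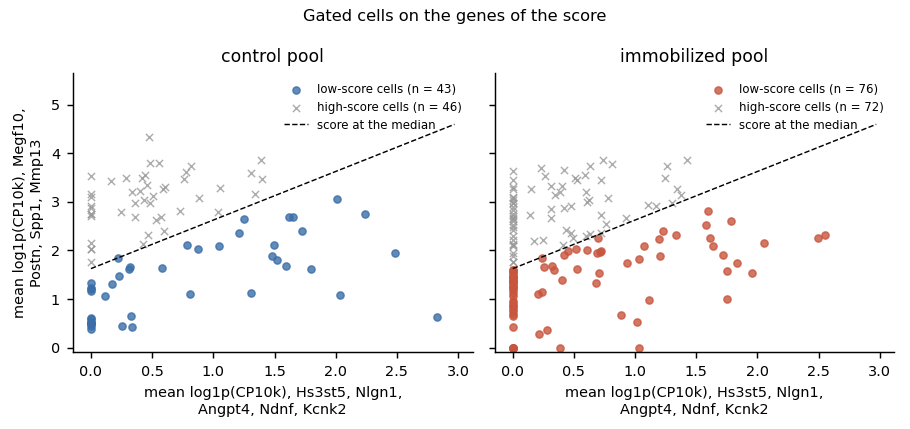
Each point is 1 gated cell, with the mean log1p level of the 5 Kcnk2-side genes on the x axis and of the 4 Megf10-side genes on the y axis, both from counts per 10000 UMIs. The dashed line is the score median of 1.63, and many low-score cells sit at 0 on the x axis, 13 in control and 31 in immobilized cells.

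Most low-score cells held a UMI of some label marker, but fewer held several. At least 3 of the 6 markers Wif1, Limch1, Kcnk2, Ndnf, Angpt4 and Hs3st5 had a UMI in 20 of 43 control (46.5%, 31.2 to 62.3) and 34 of 76 immobilized low-score cells (44.7%, 33.3 to 56.6). The same held for 60.9% and 44.4% of high-score cells and for 79.1% and 73.8% of the 153 and 286 cells set aside by Fat3, which are those that reach 3 UMIs of the 4-gene term only when Fat3 is counted. None of the 6 was seen in 10 control and 19 immobilized low-score cells. All 43 control and 68 of 76 immobilized low-score cells met the gate's minimum through Tnc and Mmp13, while Wif1, Limch1 and Kcnk2 together sufficed in 22 and 42. The 6 markers and the 5 score genes chose the cells or overlap the choice, so these values only describe them.

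The genes of the score and gate were as follows in the low-score cells, as UMIs per 1000000 UMIs of a group (CPM). Kcnk2 stood at 658 CPM in the control pool, with a UMI in 55.8% of cells, and at 445 CPM and 42.1% in the immobilized pool. After each cell was thinned to 2000 UMIs, which left out 5 and 22 shallower cells, the Kcnk2 shares were 55.3% and 38.9%. Angpt4 stood at 402 and 212 CPM, and Ndnf, with only 29 and 10 UMIs, at 128 and 37.1 CPM. Hs3st5 at 424 and 379 CPM and Nlgn1 at 786 and 542 CPM each had a UMI in 27.9% to 35.5% of the cells of a pool. Limch1, which binds actomyosin, stood at 1448 and 1481 CPM, and Wif1, a secreted Wnt inhibitor, at 706 and 638 CPM. The matrix genes on the other side of the score were lower than in high-score cells by construction, with Spp1 (osteopontin) at 2962 and 5771 CPM against 51474 and 49841 CPM.

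Low-score cells differed among themselves by whether they held any of the 5 Kcnk2-side genes. In the control pool 30 cells held at least 1 and 13 held none, and in the immobilized pool 45 and 31. Cells with none were shallower, with a median of 3007 UMIs against 5382.5 in control and 1493 against 3937 in immobilized cells. They held Limch1 at 65.9 CPM against 1795 in control and 495 against 1846 in immobilized cells, and Lifr, a receptor subunit for LIF and oncostatin M, at 2242 against 5170 and 440 against 3783. Lepr, the leptin receptor that marks CAR cells, ran the other way in the control pool, at 1407 CPM in cells with none and 326 CPM in cells with at least 1, but stood at 385 and 407 CPM in the immobilized pool. At least 3 genes of a blood or endothelial list were seen in 2 control and 17 immobilized cells with none of the 5 genes, and in 1 and 7 cells with at least 1. Low depth alone can leave a cell with none of the 5 genes, and its part in these differences was not tested.

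Cells with markers of any other type listed were more frequent among the immobilized low-score cells, but not for each list. At least 3 genes of any of the granulocyte, erythroid, B-lineage, macrophage and osteoclast, pan-haematopoietic or endothelial lists were seen in 3 of 43 control (6.98%, 1.46 to 19.1) and 24 of 76 immobilized cells (31.6%, 21.4 to 43.3). Granulocyte genes gave 1 and 13 of these cells, erythroid genes 0 and 6, and endothelial genes 0 and 4, while B-lineage genes gave 2 and 1 and pan-haematopoietic genes 3 and 2, where 0 of 43 allows up to 6.98% (3 counts). The granulocyte list, however, summed to 1315 CPM in the control pool, where 1 cell reached 153486 CPM, and to 980 CPM in the immobilized pool, and the B-lineage list summed to 450 and 70.5 CPM. The endothelial list summed to 26.5 and 676 CPM, with Pecam1 and Cdh5 at 0 UMIs in the control pool and at 13 and 10 UMIs in the immobilized pool. Ptprc, which encodes the CD45 the sort removed, had 8 and 15 UMIs. Some results between the pools are given below without these marked cells as well, but not every result that changes. Values of single genes between the 2 sides of the score are given with them.

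**Figure D2:**
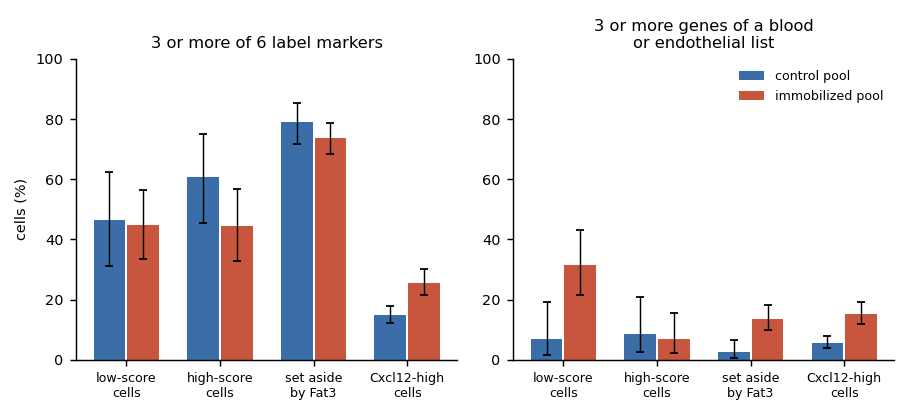
Bars give the percentage of cells, with exact 95% binomial intervals, that hold at least 3 of the 6 label markers (left) or at least 3 genes of a blood or endothelial list (right), by cell set and pool. Low-score cells reach 46.5% and 44.7% on the left, below the cells set aside by Fat3 at 79.1% and 73.8%, and the immobilized low-score cells are the highest on the right at 31.6%.

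The low-score cells held 226545 UMIs in control and 269428 in immobilized cells. Median depth was 4752 and 3182.5 UMIs per cell, median genes 2128 and 1711.5, and the median mitochondrial share 2.72% and 3.15%. By Xist and Y-linked genes, 29 control cells were female and 6 male, and 34 immobilized cells were female and 18 male, the others giving no call. The 2 sequencing lanes of a pool shared 1617 of 1620 and 1747 of 1751 barcodes, with UMIs per cell correlated at 0.9999 and 0.9998, and are 1 library each. Applied to lane 2, the rule returned 48 and 74 low-score cells, of which 29 and 52 were among the 43 and 76 of lane 1, so membership moved with resampling of reads. The tdTomato transcript, on which the cells were sorted, had a UMI in 7 of 43 control and 22 of 76 immobilized low-score cells. Of all barcodes 3 occurred in both pools, none of them a low-score cell.

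Low-score cells were first compared with high-score cells of the same pool, to describe what the score carries beyond its own genes. A gene was called when the ratio was at least 1.5-fold in the same direction in both pools with both intervals excluding 1. Of 913 genes with at least 50 UMIs on 1 side in each pool, 151 (16.5%) were called, 91 higher (9.97%) and 60 lower (6.57%) in low-score cells. The score and gate genes were left out, but the same cells were ranked by them, so this is a description. Genes of CAR stroma were called higher in low-score cells and osteocyte genes lower.

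The promoters of 2 called genes from each direction are shown because these genes carry the contrast between stromal and mineral genes. Lepr and Ebf3, an EBF transcription factor used by CAR cells, were higher, and Dmp1 and Mepe, matrix phosphoglycoproteins of osteocytes and late osteoblasts, were lower. Each line gives the 250 bases before the transcription start from RefSeq on GRCm38.p6, on the gene's strand, at chr4:101717157-101717406 (plus) for Lepr, chr7:137314446-137314695 (minus) for Ebf3, chr5:104202367-104202616 (plus) for Dmp1 and chr5:104325079-104325328 (plus) for Mepe. Capitals mark matches to the RUNX letters TGTGGT on either strand.
Lepr: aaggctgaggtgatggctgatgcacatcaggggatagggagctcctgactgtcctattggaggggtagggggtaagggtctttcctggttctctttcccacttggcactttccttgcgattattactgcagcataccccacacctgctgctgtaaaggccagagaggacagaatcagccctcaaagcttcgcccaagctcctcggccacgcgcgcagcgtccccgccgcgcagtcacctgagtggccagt
Ebf3: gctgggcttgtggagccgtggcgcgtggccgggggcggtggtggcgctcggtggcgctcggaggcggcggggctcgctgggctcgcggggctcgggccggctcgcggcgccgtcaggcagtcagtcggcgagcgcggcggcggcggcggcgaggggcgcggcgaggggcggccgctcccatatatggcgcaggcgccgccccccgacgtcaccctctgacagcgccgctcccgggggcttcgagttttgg
Dmp1: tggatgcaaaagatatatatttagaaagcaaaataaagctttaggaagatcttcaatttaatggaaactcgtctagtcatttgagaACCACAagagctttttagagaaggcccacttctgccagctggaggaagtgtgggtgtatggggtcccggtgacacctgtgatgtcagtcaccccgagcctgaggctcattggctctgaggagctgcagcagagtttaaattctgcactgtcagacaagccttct
Mepe: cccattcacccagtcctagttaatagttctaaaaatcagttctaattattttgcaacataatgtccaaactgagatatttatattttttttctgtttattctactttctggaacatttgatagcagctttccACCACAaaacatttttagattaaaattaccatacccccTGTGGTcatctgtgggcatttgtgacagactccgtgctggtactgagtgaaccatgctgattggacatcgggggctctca
The RUNX letters occurred at 1 place before Dmp1 and at 2 places before Mepe, and in 14.05% of 32851 RefSeq promoters in windows of this length. They were not found before Lepr and Ebf3, and the palindromic EBF motif, found in 0.779% of promoters, was in none of the 4 windows. A match describes the letters and is no evidence of binding. On GENCODE vM21, Lepr spans chr4:101717404-101815352, Ebf3 chr7:137193673-137314445, Dmp1 chr5:104202613-104214102 and Mepe chr5:104325329-104338611.

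Of 8 CAR genes that could be compared, 5 were called higher and 0 lower in low-score cells. Lepr stood at 543 against 60.0 CPM in the control pool and at 401 against 41.2 CPM in the immobilized pool, log2 ratios of 3.14 (2.40 to 4.06) and 3.24. Ebf3 stood at 834 against 136 CPM and at 642 against 117 CPM. Both genes separated the sides by more than 5-fold in each pool. Igfbp5, a secreted IGF-binding protein of CAR cells, stood at 1549 against 80.02 and 828 against 228 CPM, and Kitl, the stem cell factor, at 830 against 164 and 527 against 250 CPM. Gas6, a ligand of the TAM receptors, stood at 521 against 188 and 353 against 149 CPM. Ebf1 was 1.59 higher on the log2 scale in the control pool but only 0.38 in the immobilized pool and was not called, and Pdgfra, at 194 against 268 and 189 against 275 CPM, was not called.

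**Figure D3:**
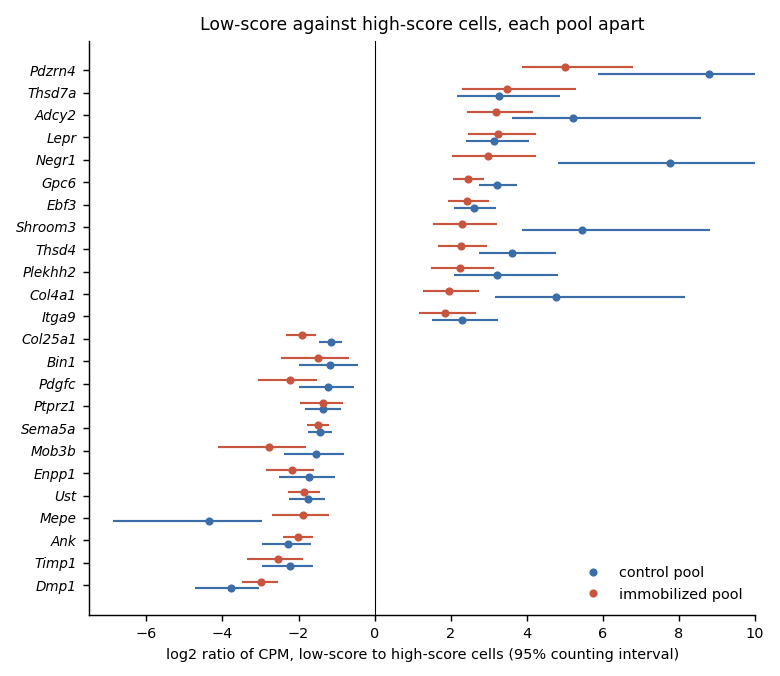
Log2 ratios of CPM between low-score and high-score cells with 95% counting intervals, each pool apart, for the 12 genes furthest above and the 12 furthest below 0 in the pool nearer 0. Lepr lies at 3.14 and 3.24, Ebf3 at 2.60 and 2.44 and Dmp1 at -3.77 and -2.98 in the control and immobilized pools; intervals past 10 end at the axis, and the control points of Pdzrn4 and Negr1 rest on 0 UMIs in high-score cells.

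All 4 osteocyte genes that could be compared were called lower in low-score cells. Dmp1 stood at 61.8 against 872 CPM in the control pool and at 156 against 1241 CPM in the immobilized pool. Mepe stood at 13.2 against 312 and at 74.2 against 279 CPM. Phex, the endopeptidase lost in X-linked hypophosphataemia, stood at 247 against 372 and at 130 against 399 CPM, and Ptprz1, a receptor phosphatase, at 230 against 588 and at 134 against 348 CPM. The pyrophosphate genes Enpp1, which makes pyrophosphate, and Ank, which exports it, were also called lower. Enpp1 stood at 92.7 against 312 and at 96.5 against 443 CPM, and Ank at 110 against 540 and at 249 against 1007 CPM. Timp1, an inhibitor of matrix metalloproteinases, stood at 106 against 508 and at 70.5 against 421 CPM. Early osteoblast genes did not separate the sides: of 10 tested, 0 were called higher and Mef2c alone lower, and Runx2, the master factor of the osteoblast lineage, stood at 3196 against 2969 and at 3051 against 3558 CPM.

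Other lists were one-sided or mixed. Of 9 BMP and TGF-beta genes tested, 5 were called higher and 0 lower. Bmp6 had 104 against 4 UMIs in the control and 51 against 17 in the immobilized cells, and Smad6, an inhibitory SMAD, 62 against 9 and 59 against 30 UMIs. Collagens went both ways, with 3 called higher and 2 lower of 12, as did neural adhesion and guidance genes, with 2 higher and 2 lower of 11, and of 12 other matrix proteins 3 were called higher and 0 lower. Over all 913 genes tested, 9.97% were called higher and 6.57% lower, and whether these lists differ from that was not tested. Gpc6, a glypican, stood at 1452 against 156 and at 1128 against 206 CPM. Pdzrn4 had 198 UMIs in control low-score and 0 in control high-score cells, at least 72.8-fold more than the floor of 3 UMIs in the group, and 150 against 5 UMIs in the immobilized pool. Negr1, a neuronal adhesion protein, had 97 against 0 and 63 against 9 UMIs, in the control pool at least 35.7-fold above the floor, and 1 cell held 46.4% of those 97. Also among the 12 named higher genes were Thsd7a, Adcy2, Shroom3, Thsd4, Plekhh2, Col4a1 and Itga9. Those named lower included Ust, Mob3b, Sema5a, Pdgfc, Bin1 and Col25a1. S100a9, a granulocyte gene, was higher too, at 503 against 52.0 and at 423 against 127 CPM, and Hmgb2, which is used in cycling cells, at 282.5 against 108 and 367 against 108 CPM. In 1 control low-score cell the granulocyte list reached 153486 CPM, and neither gene is given here without the marked cells.

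The cells set aside by Fat3 were not used to choose the members, so the same score and the same cut were applied to them. The cut gave 91 low-score and 62 high-score control cells and 177 and 109 immobilized cells. Of the 24 named genes, 20 kept their sign in both pools there, and the share over all genes was not counted. These genes were picked as extreme between the sides of the same score, so the count is a description. Among the 20, the intervals of Negr1, Col4a1 and Adcy2 included equality in both pools. So did those of Shroom3, Plekhh2 and Mepe in the control pool and that of Lepr in the immobilized pool. Dmp1 was lower in the low-score cells at 79.0 against 573 and at 86.9 against 360 CPM, and Timp1 at 132 against 623 and at 107 against 515 CPM. Ank stood at 123 against 571 and at 84.2 against 453 CPM. Ebf3 was higher at 211 against 75.6 and at 278 against 141 CPM. Lepr differed less, at 108 against 67.2 and at 86.9 against 70.5 CPM, and Pdzrn4 did not separate, at 4.56 against 8.40 and at 11.5 against 10.1 CPM. Of the 91 genes called higher among gated cells, 78 could be tested in these cells and 21 were called higher and 2 lower. Of the 60 called lower, 58 could be tested and 12 were called lower and 0 higher. Over all 2707 genes tested in these cells 158 were called (5.84%), 89 higher (3.29%) and 69 lower (2.55%). Whether the sides differ more among gated cells was not tested.

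The immobilized and control low-score cells were then compared, to describe how these cells differed after disuse. With the same fold and interval rule, 229 of 1058 genes with at least 50 UMIs in 1 pool were called (21.6%), 110 higher (10.4%) and 119 lower (11.2%) in immobilized cells. Under median-ratio scaling, which removes a shift of -0.12 over 717 genes, the split was 176 higher and 78 lower. With a minimum of 10 UMIs, 817 of 5940 genes were called (13.8%), 440 higher (7.41%) and 377 lower (6.35%). The median log2 ratio over all genes tested was -0.01. Of the 110 and 119 called genes, 76 and 78 had the same sign in female and in male cells, where the control pool held only 6 male cells. Without the marked cells 106 and 119 kept their sign, and in the cells set aside by Fat3 73 and 93 had the same sign. The share of all 1058 genes with the same sign was not counted, so nothing is read from these counts. Leaving out the marked cells kept 40 of 43 control and 52 of 76 immobilized cells, so agreement there was largely built in. In pooled cells a different mix of cells and a change within cells cannot be told apart.

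**Figure D4:**
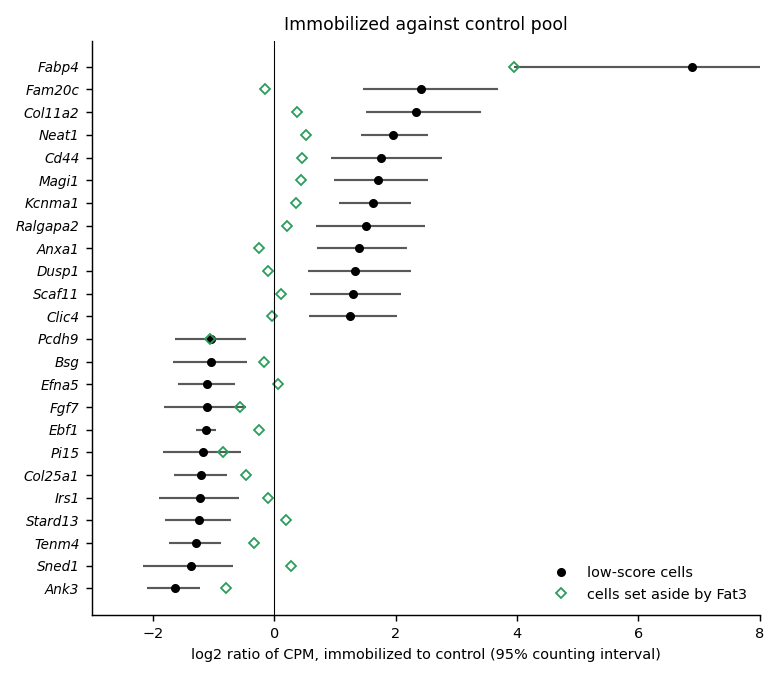
Log2 ratios of CPM between the immobilized and the control pool with 95% counting intervals for the 24 named genes in low-score cells (black), and the same ratio in cells set aside by Fat3 (green diamonds). Ank3 is the lowest at -1.64 and Fabp4 the highest; the Fabp4 point rests on 0 control UMIs, its interval runs past the axis, and the diamonds lie nearer 0 than the black points except for Pcdh9.

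CAR stromal genes were lower in immobilized low-score cells. Of 11 with enough UMIs, 11 were below 0 and 5 were called lower, with a median log2 ratio of -0.56, and under median-ratio scaling Foxc1 and Pdgfra moved above 0. Ebf1, a transcription factor of CAR cells, stood at 3871 CPM in control and 1774 in immobilized cells, a log2 ratio of -1.12 (-1.29 to -0.96), with a UMI in 86.0% and 73.7% of cells (thinned 89.5% and 83.3%). Igfbp5 stood at 1549 and 828 CPM, Kitl at 830 and 527 CPM, and Pdgfrb, a receptor of mural and stromal cells, at 525 and 338 CPM. Lpl, lipoprotein lipase, stood at 494 and 171 CPM, and 1 cell held 42.0% of its control UMIs. Cxcl12, which the gate limits, stood at 1836 and 1488 CPM, and Lepr at 543 and 401 CPM (log2 ratio -0.44, -0.82 to -0.05), and neither was called. The same 11 genes had a median of -0.45 without the marked cells, -0.78 in female and -0.30 in male cells. In high-score cells their median was 0.21 with 8 above 0, in the cells set aside by Fat3 0.04 with 6 above 0, and in Cxcl12-high cells -0.26 with 2 above 0.

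Immediate early genes, which respond within minutes to stimulation and also to tissue dissociation, were higher in immobilized low-score cells. Of 11 tested, 11 were above 0 and 9 were called higher, with a median of 1.07. Jun stood at 375 and 865 CPM (log2 ratio 1.199, 0.84 to 1.58), Fosb at 433 and 817 CPM, Egr1 at 296 and 557 CPM, and Klf2 at 110 and 301 CPM. The share of cells with a Jun UMI was 46.5% in control and 43.4% in immobilized cells (thinned 36.8% and 42.6%, so no order is read from it). Fos, at 463 and 657 CPM, and Junb, at 322 and 412 CPM, were not called. In the other cells of the same pools the median of these genes was 0.26 in high-score cells with 9 of 11 above 0, -0.44 in cells set aside by Fat3 with 0 of 11 above 0, and -1.15 in Cxcl12-high cells with 0 of 11 above 0. Within low-score cells it was 1.40 in female and -0.55 in male cells. It was 1.17 without the marked cells.

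Interferon-induced genes were lower in immobilized low-score cells, though not by the median in male cells, and also lower in the other sets. The 3 with at least 50 UMIs were called lower: B2m, the light chain of MHC class I, at 914 and 527 CPM, Ifitm3, an antiviral membrane protein, at 706 and 308 CPM, and Bst2 (tetherin) at 234 and 81.7 CPM. With a minimum of 10 UMIs, 11 of 12 were below 0, 8 were called lower and the median was -1.35, against 6.35% called lower over all genes. Isg15, a ubiquitin-like protein, had 25 UMIs in the control pool, in 9 of 43 cells, and 1 UMI in the immobilized pool. Igtp had 10 and 0 UMIs, in the control pool at least 3.96-fold above the floor. Irf1 was the gene above 0, at 79.5 and 108 CPM. For the 3 genes the median was -1.34 in female and 0.03 in male cells, and for the 12 genes -1.48 and 0.22. The control pool held only 6 male low-score cells. Over the same 12 genes the median was -1.06 with 11 below 0 in high-score cells, -1.05 with 12 below 0 in cells set aside by Fat3 and -0.80 with 12 below 0 in Cxcl12-high cells.

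**Figure D5:**
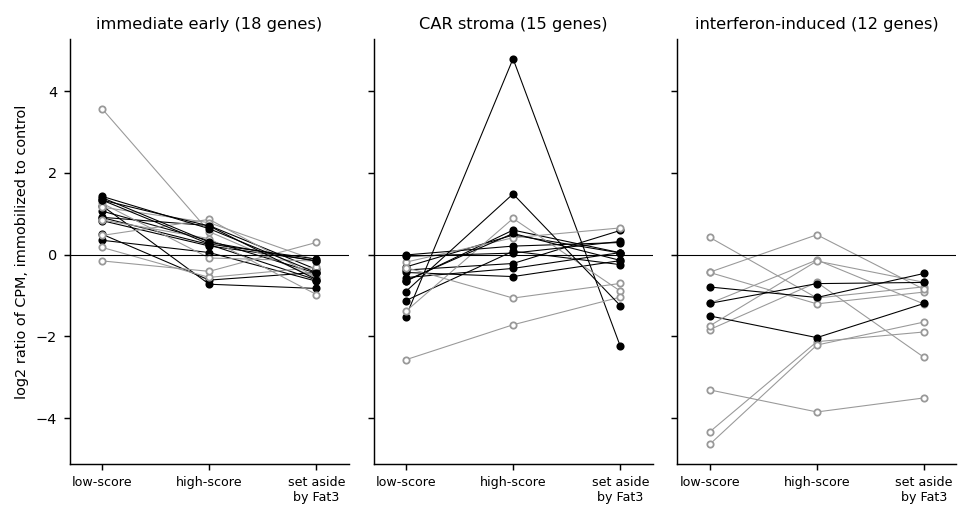
Each line is 1 gene, with its log2 ratio of CPM between the immobilized and the control pool in low-score cells, high-score cells and cells set aside by Fat3; filled points have at least 50 UMIs in low-score cells of 1 pool and open points at least 10. Over genes with at least 50 UMIs, immediate early genes have a median of 1.07 in low-score, 0.26 in high-score and -0.44 in set-aside cells, and interferon-induced genes lie mostly below 0 in all 3 sets.

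Osteoblast and collagen genes were mixed. Of 12 osteoblast genes tested, 4 were called higher and 0 lower: Col1a1, at 5226 and 9338 CPM, Col1a2, at 4476 and 6978 CPM, Col11a1, at 216 and 434 CPM, and Col11a2, at 53.0 and 278 CPM. Col11a2 turned to a log2 ratio of -0.71 when the rule was applied to lane 2, and in female cells was 0.64 (-0.84 to 2.20). The Col1a1 log2 ratio of 0.84 (0.74 to 0.94) was 0.02 in female and 2.09 in male cells, and the summed osteoblast list reached 224271 CPM in 1 control and 372538 CPM in 1 immobilized cell against medians of 16770 and 13864 CPM. Runx2 at 3196 and 3051 CPM and Alpl, alkaline phosphatase, at 878 and 727 CPM were not called. Of 16 collagens, 5 were called higher and 4 lower, the lower ones being Col6a1, Col6a2, Col8a1 and Col25a1. Col6a1 stood at 318 and 130 CPM and Col8a1 at 2167 and 1318 CPM. Osteocyte genes were mixed: Phex and Ptprz1 were called lower, at 247 and 130 CPM and at 230 and 134 CPM. With a minimum of 10 UMIs, Dmp1 (14 and 42 UMIs) and Mepe (3 and 20 UMIs) were called higher. At that minimum 3 of 5 genes were above 0, with a median of 0.18. That median was -0.32 without the marked cells and -0.06 in the cells set aside by Fat3.

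Signalling genes that were lower included members of the IGF, BMP and LIF pathways. Of 6 IGF genes, 5 were below 0 and 3 were called lower: Igfbp5, Igfbp7, at 931 and 542 CPM, and Irs1, the adaptor of the insulin and IGF receptors, at 269 and 115 CPM. The median of the 6 was -0.61, but -1.18 in female and 0.23 in male cells, and 0.88 with 4 of 6 above 0 in high-score cells. Irs1 had a log2 ratio of -1.22 (-1.90 to -0.58), and -1.22 in female and -1.20 in male cells. Of 10 BMP and TGF-beta genes, 3 were called lower and 0 higher: Bmp6, at 459 and 189 CPM, Tgfbr3, at 1055 and 653 CPM, and Id3, a BMP target, at 812 and 527 CPM. In male cells these 3 were above 0, Bmp6 at 1.53. Lifr stood at 4582 and 2880 CPM (log2 ratio -0.67, -0.81 to -0.53), and -0.05 in the cells set aside by Fat3. Rspo3, an enhancer of Wnt signalling, stood at 221 and 122 CPM, and Ror1, a Wnt5a receptor, at 115 and 223 CPM. Aldh1a2, which makes retinoic acid, stood at 331 and 74.2 CPM, with 1 cell holding 33.3% of its control UMIs.

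Genes of the actin and stretch response were mixed. Of 10 tested, 5 were above and 5 below 0 with a median of 0.095, and 3 were called higher and 1 lower: Ccn2, a target of YAP and TAZ, stood at 437 and 798 CPM, Wwtr1, which encodes TAZ, at 124 and 256 CPM, and Trpm7, a cation channel, at 159 and 245 CPM, and Ptk2, focal adhesion kinase, stood lower at 256 and 163 CPM. Ccn2 had log2 ratios of 1.47 in female, -0.27 in male and -0.0049 in set-aside cells. Among potassium channels, Kcnma1, the large-conductance calcium-activated channel, stood at 141 and 442 CPM (log2 ratio 1.63, 1.07 to 2.26), and Kcnt2 at 269 and 167 CPM. Kcnma1 was above 0 in female cells at 2.20, in male cells at 0.46 and in the cells set aside by Fat3 at 0.36.

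The named genes that were highest in immobilized low-score cells were led by Fabp4 and Fam20c. Fabp4, a fatty acid carrier of adipocytes and endothelium, had 0 UMIs in control and 70 in immobilized cells, at least 19.6-fold above the floor of 3 UMIs, and 1 cell held 70% of the 70. Fam20c, the kinase that phosphorylates secreted matrix proteins, stood at 39.7 and 223 CPM (log2 ratio 2.42, 1.47 to 3.68), with a UMI in 14.0% and 32.9% of cells. Thinned, the shares were 10.5% (2.94 to 24.8) and 16.7% (7.92 to 29.3). The Fam20c log2 ratio was 1.43 with lane 2 counts of the same cells and -0.15 in the cells set aside by Fat3. Neat1, a nuclear long non-coding RNA, stood at 154 and 605 CPM (log2 ratio 1.95, 1.44 to 2.54), with a UMI in 44.2% and 60.5% of cells (thinned 31.6% and 48.1%). It was above 0 in high-score cells at 1.18 and in set-aside cells at 0.52. Cd44, the hyaluronan receptor, stood at 61.8 and 215 CPM and was above 0 in high-score cells at 1.56 and in set-aside cells at 0.46. Also named were Col11a2, Magi1, Ralgapa2, Anxa1, Dusp1, Scaf11 and Clic4. The Scaf11 log2 ratio of 1.29 (0.60 to 2.08) was 0.31 (-0.37 to 1.03) with lane 2 counts of the same cells and -0.25 in high-score cells. Ralgapa2 had a log2 ratio of 1.51, and 0.25 without the marked cells. Clic4 had 1.25, and 0.76 (-0.07 to 1.64) without these cells, an interval that included equality. Without them Fabp4 had 3 UMIs against 0, so nearly all of its UMIs lay in cells marked by blood or endothelial genes, and it was no longer called.

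Ank3 and Ebf1 were among the named genes that were lowest. Ank3, ankyrin G, stood at 719.5 and 230 CPM (log2 ratio -1.64, -2.09 to -1.21), with a UMI in 51.2% and 22.4% of cells (thinned 36.8% and 18.5%), and was below 0 in female cells at -1.24, high-score cells at -1.46 and set-aside cells at -0.79. Tenm4, a teneurin, stood at 640 and 260 CPM and was below 0 in the same sets, at -1.17, -0.81 and -0.33. Bsg, the basigin glycoprotein, stood at 291 and 141 CPM, and Efna5, an ephrin, at 481 and 223 CPM. Fgf7, a stromal growth factor for epithelia, stood at 243 and 111 CPM, with a UMI in 48.8% and 17.1% of cells (thinned 34.2% and 13.0%). Sned1 and Stard13 were below 0 in low-score cells, at -1.38 and -1.24, and above 0 in set-aside cells, at 0.27 and 0.19. The remaining named genes were Irs1, Col25a1, Pi15 and Pcdh9.

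Tnfsf11 itself was scarce in the low-score cells. It had 24 UMIs in control and 27 in immobilized cells, or 106 CPM (67.9 to 158) and 100.2 CPM (66.0 to 146), a log2 ratio of -0.08 (-0.93 to 0.78), an interval that spans both directions, so no difference was detectable at this depth. It became -1.23 with lane 2 counts of the same cells, -1.18 in the cells lowest in score, 1.25 when cells were ranked by the 5 Kcnk2-side genes alone and 1.14 in male cells. A UMI was seen in 12 of 43 control and 13 of 76 immobilized cells. Thinned, the shares were 3 of 38 (7.89%) and 7 of 54 (13.0%), the other way round, so no order is read from them. In blood-like cells of the same pools, with median depths of 2432 and 1960 UMIs, the thinned shares were 0 of 17 and 0 of 23, which allow up to 17.6% and 13.0% (3 counts). High-score cells held Tnfsf11 at 40.0 and 108 CPM and the cells set aside by Fat3 at 31.9 and 27.6 CPM. Csf1, the other osteoclast growth factor, stood at 446 and 438 CPM. Tnfrsf11b, which encodes the RANKL decoy osteoprotegerin, had 3 and 2 UMIs.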

How the data were processed

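The deposited files give unnormalized UMI counts for each gene in each barcode, which the authors made with Cell Ranger 7.0.0 on mm10, per the submitters' processing notes. No gene annotation release is named in the labels. Features were matched to GENCODE vM21 on GRCm38 (32158 of 32286). The gate and score are those stated in the report. Members, gene lists (42) and rules were chosen with earlier results of these data known. UMIs were summed over cells per pool and divided by total UMIs, log2 ratios used a pseudocount of 0.5, and intervals are exact (conditional binomial, Clopper-Pearson or Poisson, 95%). No test was run, since each pool is 1 library on 2 lanes. The lanes differed by less than sampling noise (mean chi-square per gene 0.534 and 0.586) and were counted as 1 sample. Cells called doublets by Scrublet (scanpy 1.11.5), 12 control and 8 immobilized cells and 1 low-score cell among them, were kept, and were removed in an alternative. Other alternatives changed scaling, minimum, fold, cell filters, gate, score, lane, sex and marked cells. Shares of cells with a UMI of Kcnk2 and of genes named between pools are also given after thinning cells to 2000 UMIs. Between pools, named genes are the 12 highest and 12 lowest log2 ratios among genes with at least 50 UMIs in 1 pool, a UMI in at least 10% of low-score cells of 1 pool, a counting interval that excludes equality, and 1 sign across lane 2, both sexes and median-ratio scaling. Between sides they are ranked by the pool nearer 0, with that interval and sign in both pools. Mitochondrial, ribosomal, haemoglobin, immunoglobulin, Xist and Y-linked, Gm- and Rik-named, blood-list and rule genes were not ranked. Genes called within a list were added, and some genes are not reported here. Scripts ran in Python 3.11.15 with numpy 2.4.6, scipy 1.17.1 and pandas 2.3.3, and the contrast was tested on simulated data.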

Additional observations from a re-analysis of the deposited data

Results flagged for a closer look

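Genes were picked out here when they were called in opposite directions in low-score and high-score cells between the immobilized and control pools; with 1 pool per group the difference was not tested. Of the 10 genes given here, 6 were lower in low-score cells after immobilization and higher in high-score cells. Igfbp5 had a log2 ratio of -0.90 in low-score and 1.48 in high-score cells, and Kitl -0.65 and 0.60. Both were higher in low-score cells of each pool. The opposite directions by which they were picked therefore bring their 2 sides nearer in the immobilized pool, which is no separate result. Igfbp7 gave -0.78 and 1.19. Mmp9, a gelatinase, gave -2.16 and 3.94, but 1 cell held 55.0% of its control and 55.8% of its immobilized UMIs in low-score cells. Flrt2, an adhesion protein, gave -1.05 and 1.03, and Cemip, which takes part in hyaluronan breakdown, -0.84 and 1.81. In low-score cells 1 cell held 46.8% of the control UMIs of Cemip and 38.1% of those of Flrt2. For Igfbp5, 1 cell held 39.0% of the immobilized UMIs in low-score cells.

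The other 4 genes were higher in low-score cells and lower in high-score cells. Jun gave 1.199 and -0.72, and the proteasome subunit Psma7 0.74 and -0.94. Dcn, the proteoglycan decorin, gave 0.85 and -0.73. The heat-shock gene Hspa1a gave 1.52 and -1.30, with 1 cell holding 76.5% of its control and 84.7% of its immobilized UMIs in low-score cells.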

How the results depend on the processing

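No paired analysis was possible because the equal numbers in the labels are lanes of the same library, and no test was run. Over all results and alternatives, 552 values stayed within a set range, 102 moved outside it and 5 reversed, and the cause was not tested. The range was the counting interval for a gene or share, 1.5 times for a count, and an interval over its genes for a list. Reversal was counted only for called genes and for lists whose interval excluded equality. The IGF list, with a median of -0.61 but 0.23 in male cells, is therefore among the 552. Genes called higher in immobilized low-score cells, 110 by the stated rule, numbered 176 under median-ratio scaling, 44 among the 33 and 46 cells lowest in score, 58 in female cells, 16 in male cells, 440 with a minimum of 10 UMIs and 36 at 2-fold. Genes called lower, 119, numbered 78 under median-ratio scaling, 37 in male cells, 211 with Fat3 left out of the gate (chosen after seeing the data), 377 with a minimum of 10 UMIs and 30 at 2-fold. The Tnfsf11 log2 ratio of -0.08 became -1.23 with lane 2 counts of the same cells, -1.18 among the cells lowest in score, 1.25 when cells were ranked by the 5 Kcnk2-side genes alone and 1.14 in male cells.

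Between the sides, 91 genes called higher in low-score cells became 152 when the rule was applied to lane 2, 238 with a minimum of 10 UMIs and 43 at 2-fold. The 60 called lower became 121 in lane 2, 38 by the 5 Kcnk2-side genes alone, 103 with Fat3 left out, 100 with a minimum of 10 UMIs and 18 at 2-fold. Reversed were Stard13 at 0.0079 with Fat3 left out, Pcdh9 at 0.17 and the transcription factor list at a median of 0.032 by the 5 genes alone, Col11a2 at -0.71 with the rule applied to lane 2, and the immediate early list at -0.55 in male cells. The intervals cover counting error only; 43 and 76 cells of 1 pool each, 6 control male cells and a rule that returned 29 of 43 and 52 of 76 cells in lane 2 limit every value. Called genes were not counted with score ranges weighted equally, which gives no interval, and the sides were not compared within each sex.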

Other observations

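Ribosomal protein genes were slightly lower in immobilized low-score cells, with a median log2 ratio of -0.34 over 75 genes, of which 7 were called lower and 1 higher. Mitochondrially encoded genes had a median of 0.29 over 11 genes, of which 11 were above 0 and 1 was called higher. Over all 1058 genes tested, 11.2% were called lower and 10.4% higher, so the calls in these 2 families are not above the general share.

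Mgp, an inhibitor of calcification, was called higher in immobilized low-score cells, at 313 and 720 CPM, but 1 cell held 62.0% of its control and 54.1% of its immobilized UMIs, and the log2 ratio was 0.07 in female cells and -0.11 without the cells marked by blood or endothelial genes. In the same pools Mgp had a log2 ratio of -1.57 in the cells set aside by Fat3. Col3a1, at 472 and 356 CPM in low-score cells, had 44.9% and 57.3% of its UMIs in 1 cell of each pool. Fabp5 stood at 278 and 40.8 CPM and was seen in 14.0% and 3.95% of cells (13.2% and 5.56% after thinning to 2000 UMIs).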
